A study of Mus musculus with 6 samples.

Results

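The Hox genes were examined for binding of GLI3R, the repressor form of GLI3, in cardiac progenitors derived from mouse embryonic stem cells. The set held 38 Hox genes of 21631 protein-coding genes, 10 in the Hoxa cluster, 10 in Hoxb, 9 in Hoxc and 9 in Hoxd. A gene was counted when the summit of a ChIP-seq peak, its highest point, lay within 50 kb of the gene's interval on mm10. By this rule 4 of 3640 peaks from doxycycline-treated cells and 1 of 4379 peaks from untreated cells were near a Hox gene.

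The 6 libraries came from the line GLI3R-FTA of strain A2Lox.cre, in which a tagged GLI3R is overexpressed when doxycycline is given. Cells were untreated, or had 500 ng/ml doxycycline from day 5 to day 6, and all were collected on day 6. Each condition had 2 pull-downs on streptavidin beads through the Avi-tag and 1 input, and both conditions used the same line. Untreated peaks therefore come from cells given no doxycycline to induce the tagged GLI3R, and what these peaks reflect was not tested. One protocol field of the labels speaks of GLI1, and the groups here follow the titles, which give GLI3R. The values were 1 peak list per condition, so no value has a replicate error and no difference between conditions could be tested. Such lists hold no expression values, so the labelled cell type was not checked against its markers.

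Hox genes encode homeodomain transcription factors that give cells their position along the body axis. They stand in 4 clusters, and their order on the chromosome follows the order of their expression from head to tail. Genes with the same number in different clusters are paralogs, with low numbers expressed toward the head and high numbers toward the tail. In the heart, Hoxb1 marks progenitors of the second heart field and responds to retinoic acid. In the limb bud, GLI3R holds down the posterior Hoxd genes on the thumb side, and Sonic hedgehog lifts this repression.

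Doxycycline peaks stood at the head-side end of the Hoxb cluster, beside Hoxd13 and at a distance from Hoxa2, and no member of the Hoxc cluster had one. Among the 38 Hox genes, 9 (23.7%) lay within 50 kb of a doxycycline summit, as did 20.3% of all protein-coding genes, a share near the background. They were Hoxb1, Hoxb2, Hoxb3 and Hoxb4, which each had the same 2 summits, Hoxd10, Hoxd11, Hoxd12 and Hoxd13, which shared 1, and Hoxa2, which had 1. In the untreated list 4 members (10.5%) were counted, against 19.1% of all genes. These were Hoxc10, Hoxc11, Hoxc12 and Hoxc13, which shared 1 summit. No member had a summit in both lists, against 5.03% of all genes, and 25 members (65.8%) had one in neither, against 65.7% of all genes. Because members of a cluster lie side by side and share peaks, the counts of genes rest on 4 doxycycline peaks and 1 untreated peak.

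**Figure D1:**
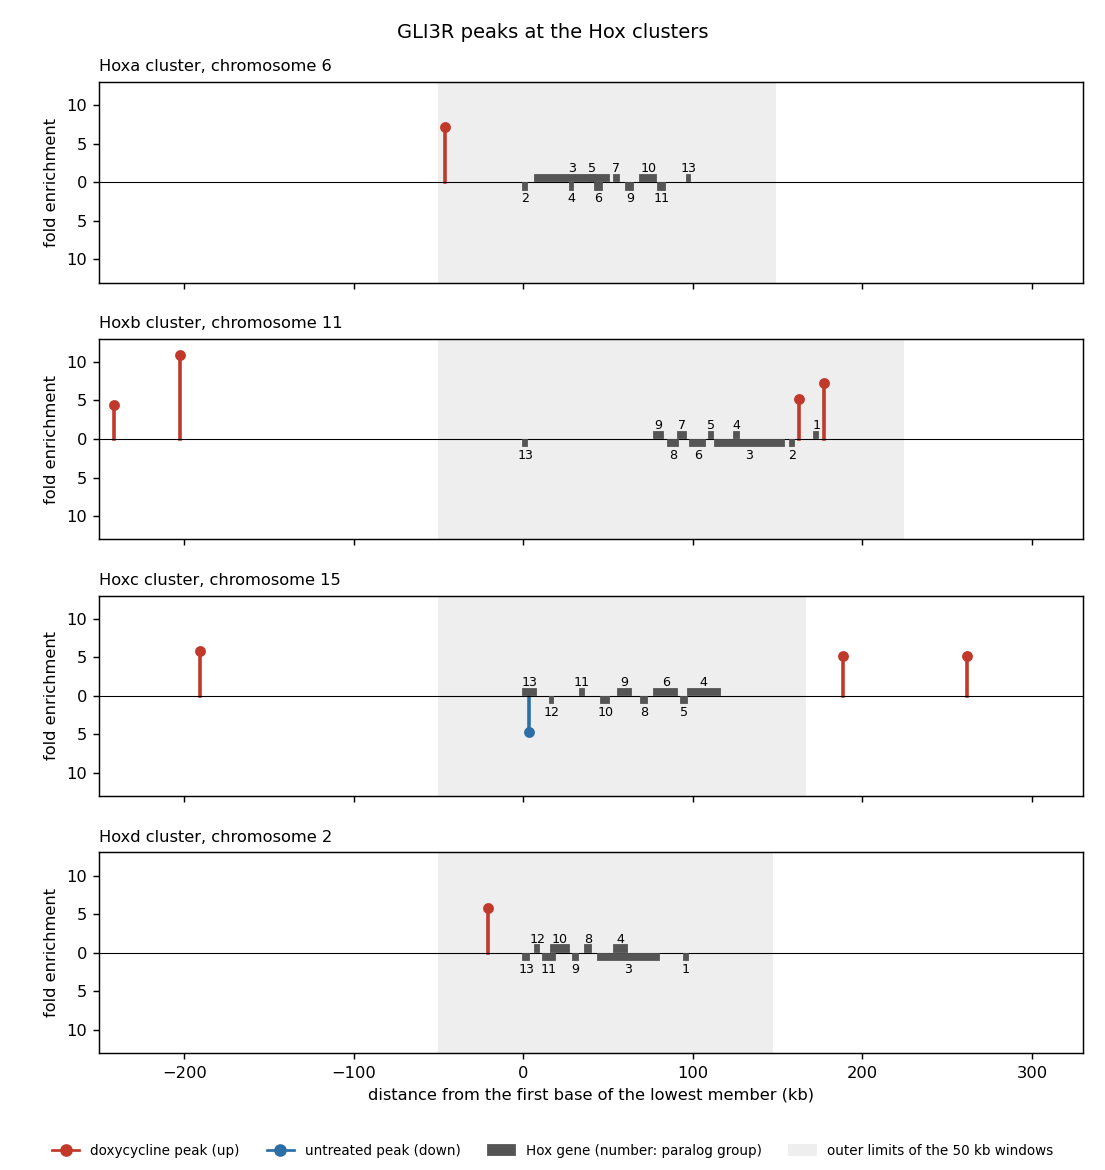
Peaks at the 4 Hox clusters, drawn to scale. The x axis gives the distance in kb from the first base of the lowest member, and the y axis the authors' fold enrichment at the summit, upward for doxycycline peaks (red) and downward for untreated peaks (blue). Grey boxes are the 38 Hox genes with their paralog number, and pale shading reaches 50 kb beyond the outer members. The doxycycline peaks at Hoxb1 and Hoxb2 stand at 7.24-fold and 5.24-fold, and the only peak inside a Hox gene is the untreated one in Hoxc13.

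The Hoxb cluster, which spans 174 kb of chromosome 11 (96194316 to 96368254), had the most doxycycline peaks. Its strongest (chromosome 11, 96371377 to 96371539) lay 3.20 kb past the end of Hoxb1, on the side away from the other Hoxb genes. It was enriched 7.24-fold with a −log10 q of 6.60, where q is the p-value adjusted by the peak caller, and 9 fragments lay over its summit. Fold and q are the authors' own values, and fragments were worked back from them. The other (96356849 to 96356988) lay between Hoxb2 and Hoxb1, 2.90 kb from Hoxb2 and 8.82 kb from Hoxb1. It reached 5.24-fold with a −log10 q of 3.22 and 7 fragments, over a local expectation of 0.526 fragments. The most frequent expectation of that list was 0.368 fragments. Both summits lie outside every protein-coding gene interval. The nearest untreated summits were 287 and 302 kb away.

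From Hoxb2 onward the distance to the nearest doxycycline summit grew with paralog number. It was 2.90 kb for Hoxb2, 3.20 kb for Hoxb1, 8.99 kb for Hoxb3 and 35.3 kb for Hoxb4, factors of the hindbrain and upper spinal cord. Hoxb5 fell just outside the limit at 50.8 kb, and Hoxb6, Hoxb7, Hoxb8 and Hoxb9 followed at 55.4 to 80.3 kb. Hoxb13, a tail-end gene separated from Hoxb9 by 74.7 kb, was 160 kb from a doxycycline summit.

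The promoter of the member nearest to a doxycycline peak is printed for each of the Hoxb, Hoxd and Hoxa clusters. Only members in the RefSeq promoter table of GRCm38.p6 (the assembly of mm10) could be chosen. The promoters of Hoxb4, Hoxd10, Hoxd11 and Hoxd12, whose starts were nearer to a summit than that of Hoxa2, are not printed. Each run holds the 250 bases before the annotated start, 5′ to 3′ on the gene's strand. Capitals mark matches, on either strand, to TGATNNAT, a form of the joint site of Pbx and Hox proteins, and to TGACAG, the site of Meis proteins.
Hoxb1 (chr11:96365508-96365757, plus strand): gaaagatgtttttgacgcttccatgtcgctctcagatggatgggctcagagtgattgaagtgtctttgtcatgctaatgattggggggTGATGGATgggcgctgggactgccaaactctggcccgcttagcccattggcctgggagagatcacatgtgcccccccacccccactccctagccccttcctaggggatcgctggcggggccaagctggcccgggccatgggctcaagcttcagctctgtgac
Hoxd13 (chr2:74667975-74668224, plus strand): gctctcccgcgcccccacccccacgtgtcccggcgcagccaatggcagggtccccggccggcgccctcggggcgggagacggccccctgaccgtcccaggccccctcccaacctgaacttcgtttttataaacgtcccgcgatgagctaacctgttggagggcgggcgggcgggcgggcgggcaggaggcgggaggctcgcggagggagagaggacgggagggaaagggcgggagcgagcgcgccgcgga
Hoxa2 (chr6:52164832-52165081, minus strand): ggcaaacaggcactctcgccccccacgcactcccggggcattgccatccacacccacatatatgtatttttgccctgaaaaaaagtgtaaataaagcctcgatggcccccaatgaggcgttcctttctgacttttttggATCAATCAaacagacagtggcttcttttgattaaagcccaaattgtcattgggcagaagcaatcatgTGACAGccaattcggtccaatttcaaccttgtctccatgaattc
None of these 3 promoters overlapped a peak, and the nearest doxycycline summit was 5.70 kb from the start of Hoxb1, 20.7 kb from that of Hoxd13 and 48.7 kb from that of Hoxa2. The Hoxb1 run holds 1 TGATNNAT match and the Hoxa2 run holds 1 match to each motif, while the Hoxd13 run holds neither and has a GC content of 74.4%.

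The GLI consensus GACCACCCA was searched on both strands of 24 promoter windows of 300 bases (250 before and 50 after the start) that belong to 22 of the 38 members. It was in 0 of the 24, and in 0.253% of all 32851 windows in the table. Its shorter form GACCACCC, whose matches include those of the longer one, was in 0 of the 24 and in 0.807% of all windows. TGATNNAT was in 4 of the 24, those of Hoxa2, Hoxb1, Hoxb8 and Hoxd11, and in 8.85% of all windows. TGACAG was in 2, those of Hoxa2 and Hoxa3, and in 19.2% of all windows. A match is a stretch of letters and not a bound site, and windows without a match say nothing of the factor elsewhere in the cluster. The sequences under the peaks were not analysed here.

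The Hoxd cluster spans 96.9 kb of chromosome 2 (74668225 to 74765142) and had 1 doxycycline peak, outside the cluster beyond its tail-end gene. The peak (74647350 to 74647663) lay 20.7 kb before the start of Hoxd13, a gene of digit and hindgut development. Its fold enrichment was 5.85, with a −log10 q of 4.17 and 7 fragments. Hoxd12, Hoxd11 and Hoxd10, which pattern the limb and lumbosacral region, were 27.5, 32.0 and 36.7 kb from the same summit. Evx2, a homeobox gene that adjoins the cluster, was closer to it than any Hox gene, at 5.43 kb. Hoxd9 was the first member outside the limit, at 50.2 kb, and Hoxd8, Hoxd3, Hoxd4 and Hoxd1 were at 57.1, 64.4, 74.4 and 115 kb. In the untreated list all 9 Hoxd genes were 272 to 367 kb from a summit.

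The Hoxa cluster, 98.5 kb of chromosome 6 from Hoxa2 to Hoxa13 (52162417 to 52260880), had no summit in its span in either list. Its single doxycycline peak (52116016 to 52116198) lay 46.3 kb from Hoxa2, past the end of that gene on the head-side flank. The peak was enriched 7.10-fold with a −log10 q of 6.31 and 9 fragments, close to the values of the Hoxb1 peak. Hoxa2, a regulator of hindbrain and second branchial arch identity, was the only Hoxa member within the limit. Hoxa3, which acts in thymus and parathyroid formation, was outside it at 53.0 kb. From Hoxa4 to Hoxa13 the distance grew from 73.6 to 143 kb. Untreated summits lay 439 kb or more from each of the 10 Hoxa members.

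The Hoxc cluster, 116 kb of chromosome 15 (102921131 to 103036856), had a peak in the untreated list alone. It had 0 doxycycline summits within 50 kb of its 9 members and 1 untreated summit. The untreated peak (102924158 to 102924348) lay inside Hoxc13, a gene of hair and nail formation, at 4.72-fold with a −log10 q of 2.52 and 5 fragments. Over all genes 6.03% held an untreated summit inside and 6.24% a doxycycline summit, and among the 38 Hox genes these counts were 1 and 0. Hoxc12, Hoxc11 and Hoxc10 were 12.6, 30.3 and 42.6 kb from the untreated summit, and Hoxc9 was outside at 52.8 kb. The nearest doxycycline peak (103109763 to 103109908) lay beyond the head-side end of the cluster, 73.0 kb from Hoxc4, at 5.12-fold and 6 fragments. No test compares the clusters, since the members of a cluster share their peaks.

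The 5 peaks near Hox genes held few fragments. By −log10 q the peaks by Hoxb1 and Hoxa2 ranked 752 and 784 of 3640, above 78.9% and 78.0% of the doxycycline list. The peaks by Hoxd13 and Hoxb2 ranked 1272 and 1857, above 51.9% and 48.9%. The untreated peak in Hoxc13 ranked 1497 of 4379 (ties take the best rank) and stood above 37.6% of its list. Its 5 fragments were the median of the untreated list, whose smallest peaks held 4. In the doxycycline list the median was 7 fragments and the smallest peaks held 5. With so few fragments the differences in fold between the doxycycline peaks are not read further, and they were not tested. For a gene with no peak in a list, only the caller's threshold is known to have been missed, which does not show that the protein was absent there.

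**Figure D2:**
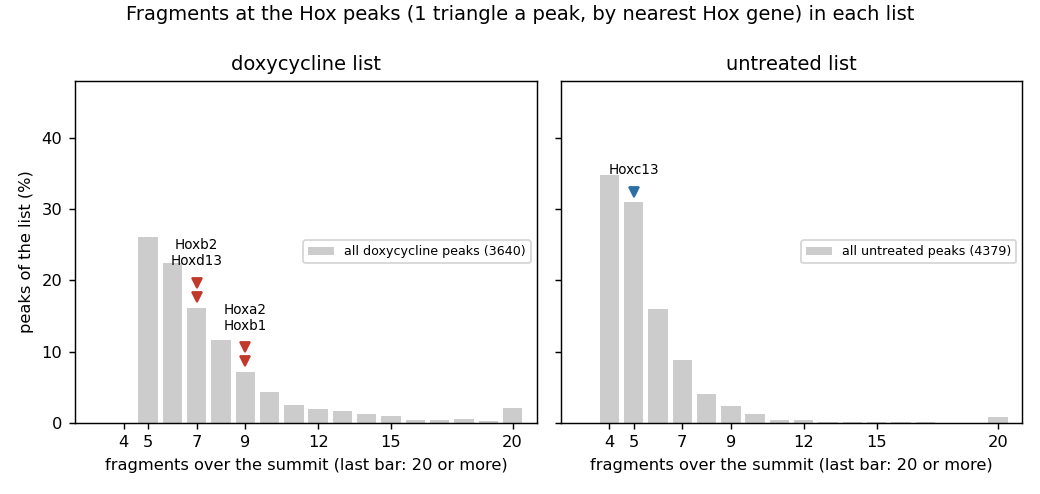
Fragments over the summit, worked back from the authors' values, for each list. The x axis gives the number of fragments (the last bar holds peaks with 20 or more) and the y axis the percent of the list's peaks. Each triangle is 1 peak near a Hox gene, placed over its bar and named by the nearest Hox gene. The doxycycline peaks sit at 7 and 9 fragments and the untreated peak at 5.

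None of the 5 peaks overlapped a peak of the other list. The nearest summit of the other list was 186 kb from the Hoxc13 peak, 252 kb from the Hoxd13 peak, 287 and 302 kb from the Hoxb peaks and 441 kb from the Hoxa2 peak. As a share of each list, peaks near Hox genes made up 0.110% of the doxycycline list (4 of 3640, exact 95% Clopper-Pearson interval 0.0299 to 0.281%) and 0.0228% of the untreated list (1 of 4379, 0.000578 to 0.127%). These intervals overlap and cover counting error only. The windows within 50 kb of a member covered 0.885 Mb. Their density was 4.52 doxycycline peaks per Mb (exact 95% Poisson interval 1.23 to 11.6), against 1.40 per Mb over the span of genes on the 20 chromosomes with peaks. In the untreated list it was 1.13 per Mb (0.0286 to 6.30), against 1.68. Both intervals include the density of the whole list.

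Measured by distance alone, the Hox clusters lay closer to doxycycline summits than to untreated ones. The median Hox gene was 74.0 kb from the nearest doxycycline summit, against 204 kb over all protein-coding genes. For untreated summits the median was 313 kb, against 211 kb over all genes. The doxycycline distances ran from 2.90 kb at Hoxb2 to 181 kb at Hoxc13, and the untreated distances from 0 at Hoxc13 to 509 kb at Hoxa4. The nearest doxycycline summit was closer than the nearest untreated one for 30 of the 38 members. The exceptions were Hoxc5, Hoxc6, Hoxc8, Hoxc9, Hoxc10, Hoxc11, Hoxc12 and Hoxc13. These medians describe 4 places in the genome and not 38 independent genes, and they were not tested.

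**Figure D3:**
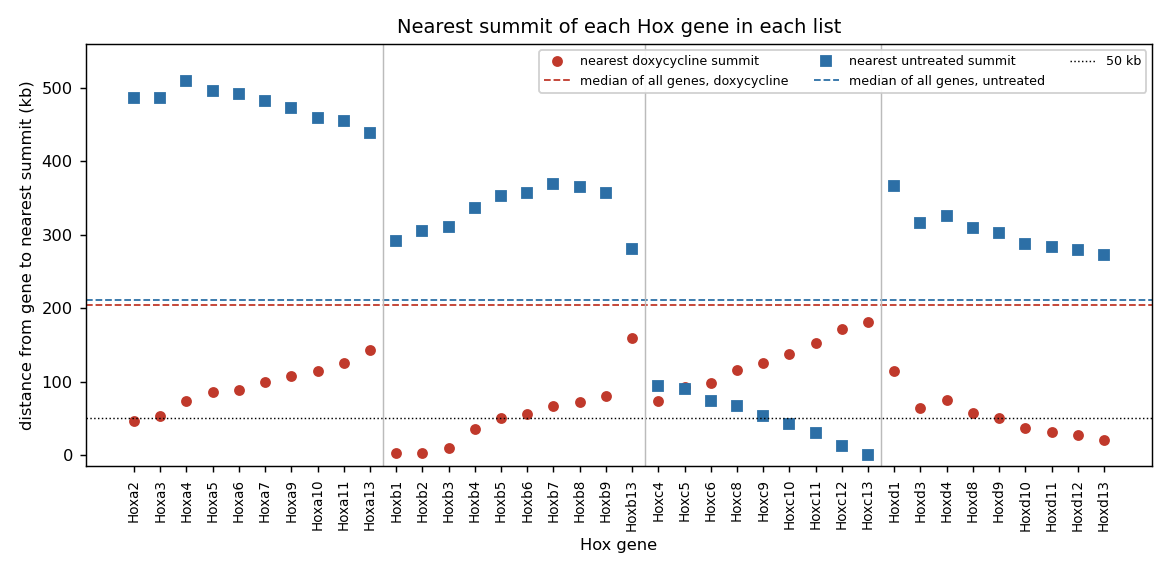
Distance in kb (y axis) from each of the 38 Hox genes (x axis, by cluster) to the nearest doxycycline summit (red circles) and the nearest untreated summit (blue squares). Dashed lines are the medians of all protein-coding genes, 204 and 211 kb, and the dotted line is 50 kb. Red circles lie below the blue squares except from Hoxc5 to Hoxc13.

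The share of Hox genes counted rose steeply with the distance allowed, as whole clusters came within reach of the same peaks. Within 10 kb, 3 members (Hoxb1, Hoxb2 and Hoxb3) had a doxycycline summit, 7.89% against 9.66% of all genes, and 1 (Hoxc13) had an untreated summit, 2.63% against 8.70%. Within 100 kb the doxycycline count was 26 (68.4% against 31.7%) and the untreated count 9 (23.7% against 30.6%). Within 250 kb all 38 members had a doxycycline summit, where 56.3% of all genes did, and the 9 Hoxc genes had an untreated one, where 55.4% did. At 500 kb the counts were 38 for doxycycline (76.2% of all genes) and 37 for untreated summits (77.5%). At 50 kb the 2 members nearest the limit on the inner side were Hoxb4, whose farther summit was 49.8 kb away, and Hoxa2 at 46.3 kb. On the outer side they were Hoxd9 and Hoxb5 at 50.2 and 50.8 kb. Hox genes are short, with a median length of 3.72 kb against 17.3 kb for all genes. Among genes no longer than the longest member (44.0 kb), 17.2% had a doxycycline and 14.8% an untreated summit within 50 kb.

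**Figure D4:**
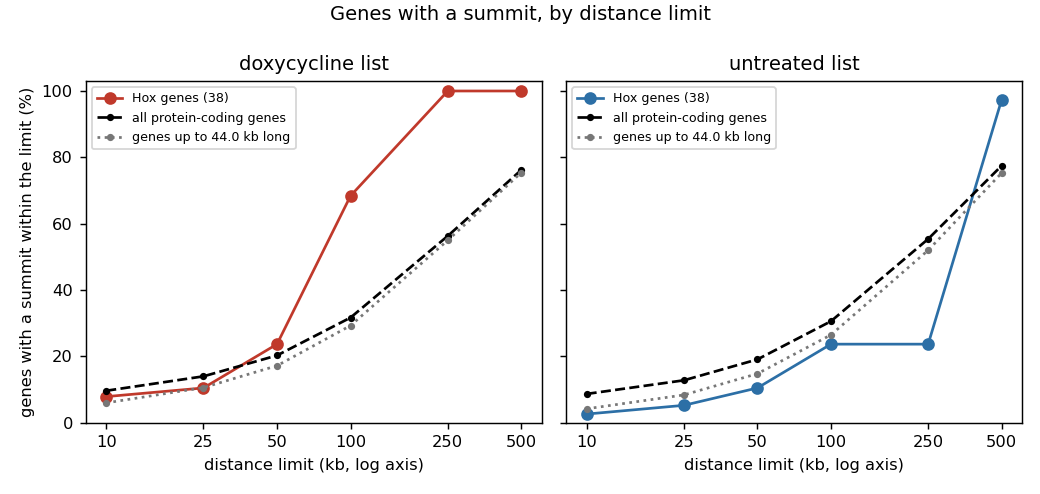
Percent of genes with a summit (y axis) within each distance limit (x axis, kb, log scale) in the doxycycline list (left) and the untreated list (right). Coloured lines are the 38 Hox genes, black dashed lines all protein-coding genes, and grey dotted lines genes up to 44.0 kb long. The Hox line of the doxycycline list is near the others up to 50 kb and reaches 68.4% at 100 kb, while that of the untreated list stays at 23.7% from 100 to 250 kb.

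By paralog number, the members near doxycycline summits were in groups 1 to 4 and 9 to 13, though many members of these groups had none. Over all genes, 20.3% lay within 50 kb of a doxycycline summit and 19.1% of an untreated one. The counts by group rest on 4 doxycycline peaks and 1 untreated peak. The Hoxa and Hoxd peaks lay outside the span of their clusters, so the limit reached end members first. Of 11 members of groups 1 to 4, 5 had one, of 11 of groups 5 to 8 none did, and of 16 of groups 9 to 13, 4 did. Untreated summits were near 4 of the 16 members of groups 9 to 13 and none of the others. Group 2 was counted in both clusters that hold it, through Hoxa2 and Hoxb2, which lay near different peaks. In groups 10, 11, 12 and 13 the Hoxd paralog had a doxycycline summit and the Hoxc paralog an untreated one. The Hoxd paralogs shared 1 peak, and so did the Hoxc paralogs. The middle members, such as Hoxa5, Hoxb6, Hoxc6 and Hoxd8, which pattern the trunk, had a summit within 50 kb in neither list.

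Peaks were also counted in the wider surroundings, which include the clusters and their 50 kb windows. From 1 Mb before to 1 Mb after each cluster there were 23 doxycycline and 14 untreated summits in all, or 2.71 and 1.65 per Mb. The densities were 4.52 and 1.13 per Mb in the 50 kb windows, and 1.40 and 1.68 over the span of genes. Hoxc had 9 and 3, Hoxb 8 and 3, Hoxa 4 and 6, and Hoxd 2 and 2. Among the nearest flanking peaks of the untreated list, the highest fold was 11.0, 487 kb from Hoxa2, with a −log10 q of 13.7. In the doxycycline list it was 10.9, 203 kb from Hoxb13, with a −log10 q of 13.8. Each exceeds the peaks of its own list within 50 kb of a member.

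The clusters also hold microRNA genes, some of which act on Hox messages. Those looked at were Mir10a, Mir10b, Mir196a-1, Mir196a-2, Mir196b and Mir615, and 2 of them lay within 50 kb of a summit. Both were reached by peaks already counted for Hox genes, and no share over all microRNA genes is given here. Mir615 in Hoxc was 94.9 kb from a doxycycline and 90.7 kb from an untreated summit. Mir10a, between Hoxb4 and Hoxb5, was 39.6 kb from a doxycycline summit, and Mir196a-2, between Hoxc10 and Hoxc9, was 49.1 kb from the untreated one. Their counterparts Mir10b in Hoxd and Mir196b in Hoxa were 78.5 and 114 kb from the nearest doxycycline summit. The mature sequences are shown to identify which family each peak stands near, with the seed (bases 2 to 8) in capitals, from RefSeq on GRCm38.p6.
miR-10a-5p: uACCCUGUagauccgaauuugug
miR-10b-5p: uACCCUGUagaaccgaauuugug
miR-196a-5p: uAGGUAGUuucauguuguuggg
miR-196b-5p: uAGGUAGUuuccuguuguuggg
miR-10a and miR-10b share 1 seed, and miR-196a and miR-196b share another. Of the miR-10 genes, Mir10a lay within 50 kb of a doxycycline summit and Mir10b of none in either list. Of the miR-196 genes, only Mir196a-2 lay within 50 kb of a summit, an untreated one. Another gene, Mir196a-1 in Hoxb, encodes the same mature miR-196a-5p and was 91.7 kb from a doxycycline summit.

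The related lists were counted in the same way, without a test. Over all protein-coding genes, 20.3% lay within 50 kb of a doxycycline summit and 19.1% of an untreated one. The lists hold few genes, some of which share peaks, so differences from these shares are not read further. Of 9 TALE cofactors, the homeodomain partners that sharpen the binding of Hox proteins, 4 (44.4%) lay within 50 kb of a doxycycline summit and 4 of an untreated one, with 2 in both. Doxycycline peaks were inside Pknox2 (9.04-fold), Pbx2 (8.77-fold) and Meis2 (8.04-fold). Untreated peaks were inside Pknox2 (6.29-fold), Meis2 (5.50-fold) and Pbx3 (4.54-fold), and Pknox1 had 1 inside (3.93-fold) and 1 at 24.4 kb (5.50-fold). In Meis2 a doxycycline and an untreated peak cover the same place, at 116065937 to 116066171 and 116066063 to 116066209 of chromosome 2.

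Among 6 ParaHox and Cdx genes, the sister cluster and the activators of posterior Hox genes, 4 (66.7%) were near a doxycycline summit. An untreated summit was near 2 (33.3%), and the shares of all genes were 20.3% and 19.1%. Cdx1 had a doxycycline summit 35.2 kb away at 6.58-fold, and Gsx1 one 29.1 kb away at 5.12-fold. Cdx2 and Pdx1, which are neighbours, shared 1 doxycycline peak, 10.8 and 42.2 kb away at 5.12-fold. Untreated summits were near Cdx4 (39.3 kb, 6.29-fold) and Cdx1 (44.9 kb, 3.93-fold).

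The list of retinoic acid genes held 18, which make, degrade or sense the signal that opens Hox clusters from the head side. Of these, 8 (44.4%) were near a doxycycline summit and 3 (16.7%) near an untreated one, against 20.3% and 19.1% of all genes. Rara, a retinoic acid receptor, held a peak of 10.4-fold with 14 fragments inside the gene. Aldh1a3 and Rdh10, enzymes of retinoic acid synthesis, had peaks 3.26 kb (8.04-fold) and 4.42 kb (7.31-fold) away. Dhrs3, which lowers retinoic acid by reducing retinaldehyde, had a doxycycline peak inside at 4.98-fold and 1 at 49.8 kb away at 5.12-fold, and Rarg, another receptor, had 1 at 10.4 kb away at 5.12-fold. Dhrs3 also had the highest untreated peak of these genes, 20.7 kb away at 5.50-fold. The other untreated peaks were inside Stra6, a retinol transporter (4.72-fold), and 16.5 kb from Crabp2, a binding protein (3.83-fold).

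Of 16 Polycomb and Trithorax regulators, which keep Hox genes silent or active, 6 were near a doxycycline summit and 4 near an untreated one. The highest doxycycline peak lay 30.4 kb from Kdm6b, a demethylase of the Polycomb mark, at 22.7-fold with 30 fragments. Cbx7, a Polycomb subunit, held one inside at 11.6-fold. Phc1 and Kmt2a had peaks 19.2 kb (8.77-fold) and 0.133 kb (7.85-fold) away. Untreated peaks lay 2.19 kb from Eed (4.72-fold), 46.1 kb from Cbx8 (4.49-fold) and inside Cbx7 (3.93-fold).

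Of 11 genes that flank the clusters, 5 (45.5%) were near a doxycycline summit and 1 (9.09%) was near an untreated one. The shares of all genes were 20.3% and 19.1%. Skap1, on the head side of Hoxb, held a doxycycline peak of 6.58-fold and an untreated peak of 3.87-fold. Evx2 shared the Hoxd13 peak, and Calcoco1 had a peak 8.28 kb away (5.85-fold) on the tail side of Hoxc. On the head side of Hoxc, Cbx5 and Smug1 shared a peak of 5.12-fold, 9.02 and 13.6 kb away. Of 12 Dlx and Irx genes, homeobox genes that also stand in small clusters, 3 (25%) were near a doxycycline summit. An untreated summit was near 1 of them (8.33%). The shares of Hox genes were 23.7% and 10.5%, and those of all genes 20.3% and 19.1%. Dlx5 and Dlx6 shared a doxycycline peak of 8.04-fold, 2.97 and 6.86 kb away, and Dlx3 had one 44.7 kb away at 6.58-fold. Irx4 had the untreated one, 29.5 kb away at 6.29-fold.

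**Figure D5:**
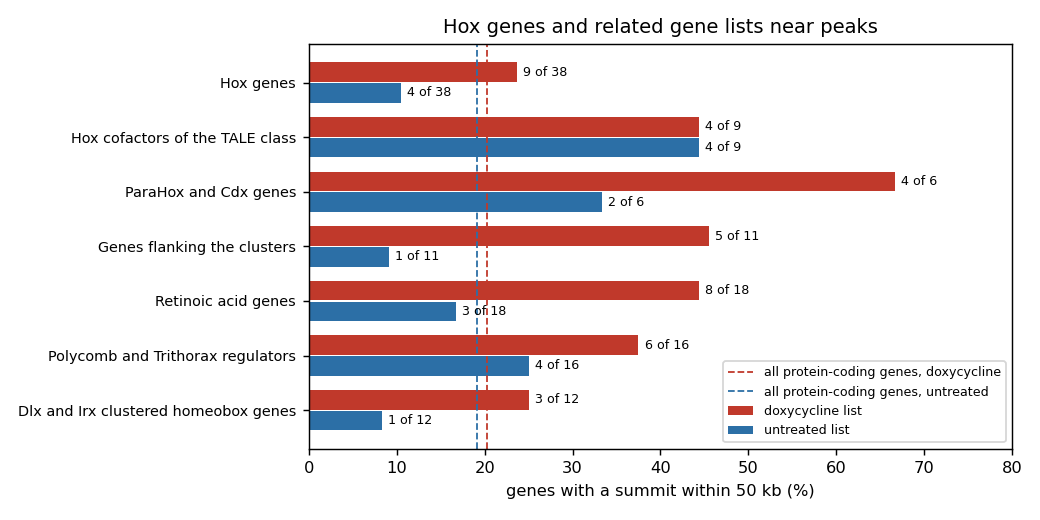
Percent of genes with a summit within 50 kb (x axis) for the Hox genes and 6 related lists (y axis), in the doxycycline list (red) and the untreated list (blue), with the counts beside the bars. Dashed lines are the shares of all protein-coding genes, 20.3% and 19.1%. Hox genes stand at 23.7% and 10.5%, and the lists hold few genes, some of which share peaks.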

How the data were processed

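The series holds 6 ChIP-seq libraries, 4 pull-downs and 2 inputs, grouped by their titles. The build was mm10, and the tools named were MACS2 2.1.1, SAMtools 1.5 and Bowtie2 2.3.2, per the submitters' processing notes. Which settings and control were used, and whether pull-downs were pooled, is not given in the sources used here. A peak's fold enrichment (a ratio at the summit), −log10 p and −log10 q are the authors' deposited values, used only within a list. The deposited score is 10 times −log10 q and was not used.

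Rows sharing an interval were merged (3725 to 3640 doxycycline peaks, 4428 to 4379 untreated). Fragments over the summit were worked back from fold and −log10 p, taking fold as fragments plus 1 over expectation plus 1 and p as an upper Poisson tail, which matched a whole number within 0.01 for 99.75% and 99.84% of peaks. Library depths were not analysed here. Genes came from RefSeq on GRCm38.p6, 21900 protein-coding, of which 269 on chromosomes without peaks were left out. Coordinates count from 1. Distances run from the summit to the gene interval, 0 inside. Exons, introns and UTRs were not analysed here.

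The Hox genes and related lists were chosen with earlier results of these data known. Named were every peak within 50 kb of a member, the genes nearest the limit, and in each related list up to 4 genes per condition with the highest −log10 q. Some genes of this rule, and 1 related list, are not reported here. All 38 members matched the table, and of the genes flanking the clusters 11 of 12 did. Counts have no test. Steps were tested on simulated data. Alternatives were other distances, thresholds and counting rules. Software was Python 3.11.15 with scipy 1.17.1, numpy 2.4.6, matplotlib 3.10.9 and pandas 2.3.3.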

Additional observations from a re-analysis of the deposited data

How the results depend on the processing

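Against 9 Hox genes near doxycycline summits and 4 near untreated ones, a limit of 10 kb gave 3 and 1, and 100 kb gave 26 and 9. At a minimum −log10 q of 5, and likewise with the top 1000 peaks, the counts were 5 and 0. All genes then counted at 8.52% and 2% (7.11% and 4.81% with the top 1000). With the nearest gene only they were 2 and 1, beside 9.94% and 10.3% of all genes. The 4 doxycycline peaks became 2 within 10 kb, at that minimum, among the top 1000 and with the nearest gene only. The single untreated peak was lost (0) at a minimum −log10 q of 5 and in the top 1000. Minimum fragments were chosen after seeing the data: with at least 7 the untreated genes and peaks were 0 and 0, and the doxycycline counts stayed at 9 and 4, beside 4.06% (untreated) and 12.1% (doxycycline) of all genes. These shifts follow from counting fewer peaks or another distance. Counting every row, distances from the peak's edge or to the nearer gene end, and at least 5 fragments left all 4 counts as they were. No paired analysis was possible because the deposited lists, 1 for each condition, carry no replicate columns. Few fragments per peak limit what absence from a list shows.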

Other observations

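Non-coding genes also lay beside these peaks and were looked at after the peaks were known. The doxycycline peak on the flank of Hoxa was 2.40 kb from Halr1, a long non-coding RNA gene. The doxycycline peak between Hoxb2 and Hoxb1 was 3.53 kb from Hoxb3os, which is transcribed within the cluster, and that beyond Hoxb1 was 18.1 kb from it. The doxycycline peak before Hoxd13 was 14.0 kb from Gm31790. The untreated peak inside Hoxc13 was 19.8 kb from Hotair, the long non-coding RNA gene of the Hoxc cluster. None of these genes held one of the 5 summits.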
